A study of Mus musculus with 2 samples.

Results

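Intermediate filament genes encode the rope-like cytoskeleton of neural cells, and 8 of the 23284 gene symbols in the deposited tables were described here. They were chosen by name: the progenitor filaments Nes and Vim, the glial filament Gfap, and the neuronal filaments Ina, Nefl, Nefm, Nefh and Prph. Each had 1 record. The measurements came from 2 RNA sequencing libraries of dissected mouse medulloblastoma, a tumour of the cerebellum, with 1 library per genotype. The knockout library came from tumour tissue of the genotype CAG-CreER, Rosa26-SmoM2, Brg1F/F, and the wild-type library from tumour tissue of the genotype CAG-CreER, Rosa26-SmoM2, Brg1+/+. Neither the number of animals behind a library nor their age is stated. Both genotypes thus carried the tamoxifen-inducible Cre and SmoM2, an activated form of the Hedgehog signal transducer Smoothened, and both groups received 10 tamoxifen injections. Brg1, encoded by Smarca4, is the ATPase that drives nucleosome remodelling by BAF complexes. The CAG promoter is active in most cell types, so the Cre was not limited to tumour cells. The comparison addresses how expression in this Hedgehog-driven tumour differs after loss of Brg1.

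Cells of the nervous system change filament genes as they mature. Neural stem cells and radial glia make nestin (Nes) together with vimentin (Vim), astrocytes and the Bergmann glia of the cerebellum make glial fibrillary acidic protein (Gfap) along with vimentin, and neurons make alpha-internexin (Ina) early and the neurofilament light, medium and heavy chains (Nefl, Nefm, Nefh) as their axons mature. In the cerebellum the neurofilament chains are best known from Purkinje cell axons and from the basket cell axons that surround Purkinje cells, and peripherin (Prph) is known from peripheral neurons and from brainstem neurons with axons in the periphery.

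The family is recognised by a conserved stretch at the end of the rod domain, through which the proteins assemble, and the coding bases of this stretch are shown for all 8 genes because they also separate the genes by structure. The sequences are 27 bases each, 5′ to 3′, from the GENCODE M21 transcript with the longest coding sequence of each gene. Capitals mark the 14 positions that are equal in all 8 genes.
Nes: aCaTACAGgActcTgcTgGAgGctGAg
Vim: aCcTACAGgAagcTgcTgGAaGgcGAg
Gfap: aCcTACAGgAaatTgcTgGAgGgcGAa
Ina: gCtTACAGgAagcTccTgGAaGgtGAa
Nefl: gCtTACAGaAaacTctTgGAaGgcGAa
Nefm: gCgTACAGgAaacTccTaGAgGggGAa
Nefh: gCtTACAGaAagcTccTgGAaGgcGAa
Prph: aCcTACAGgAagcTacTgGAaGggGAg

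In Vim, Gfap and Prph the stretch lay within 1 exon. In Vim it was in exon 6 (chr2:13580204-13580230, plus strand, mm10), in Gfap in exon 6 (chr11:102893043-102893069, minus strand) and in Prph in exon 5 (chr15:99057444-99057470, plus strand). In the other 5 genes an intron split it after base 8. The parts lay at chr3:87973109-87973116 and chr3:87974802-87974820 for Nes, at chr19:47021950-47021957 and chr19:47023335-47023353 for Ina, and at chr14:68086091-68086098 and chr14:68086487-68086505 for Nefl, all on the plus strand. On the minus strand they lay at chr14:68122821-68122828 and chr14:68121366-68121384 for Nefm and at chr11:4943851-4943858 and chr11:4941397-4941415 for Nefh. Exon numbers followed the same division: Vim and Gfap had 9 exons and Prph 8, whereas Nes, Nefl and Nefh had 4 and Ina and Nefm 3. Coding length ran from 1290 bases in Gfap to 5592 bases in Nes. The stretch of Prph had 25 of 27 bases in common with that of Vim, and that of Nefm had 19 of 27.

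Nefl and Nefm are neighbours on chromosome 14, with their deposited records 31807 bases apart and on opposite strands. The deposited Nefl record ends 1358 bases short of the end of Nefl in GENCODE M21. In GENCODE M21, 1 Nefm transcript overlaps Nefl on the other strand, and whether that overlap reaches the deposited record was not tested. The labels do not say whether the libraries kept strand information. Whether reads in that overlap were assigned by strand is not known. Among the 28 pairs of the 8 transcripts the longest identical run was 35 bases, between Nefm and Prph, and the median over pairs was 16.5 bases. Identical runs repeated inside 1 transcript were longer, 121 bases in Nefh, whose tail consists of repeats, and 89 bases in Nes, against 16 bases or fewer in the other 6 genes.

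The deposited values are FPKM, fragment numbers corrected for transcript length and sequencing depth, each with a lower and an upper bound. The file gives no counts, so the depth behind each value is unknown. Libraries were compared by the log2 of the knockout FPKM plus 1 over the wild-type FPKM plus 1. A fixed size of at least 1 or at most -1, which is 2-fold, was used and no test was run. Since each genotype had 1 library, no value has a replicate error, and a difference between the libraries cannot be told apart from a difference between the tissue samples. The targeted gene Smarca4 had 3.76 FPKM in the knockout library, against 14.05 FPKM in the wild-type library. Xist, which is transcribed from the inactive X chromosome, had 0.369 FPKM in the knockout and 268.3 FPKM in the wild-type library, so sex and genotype cannot be told apart either. The granule neuron precursor genes that define the tumour lineage were present in both libraries, with a sum over 6 genes of 104.3 FPKM in the knockout and 481.3 FPKM in the wild-type library.

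Of the 8 filament genes 7 reached 1 FPKM in at least 1 library, and 4 of them, Gfap, Nefl, Nefm and Nefh, passed 2-fold upwards in the knockout library. Among all 13279 records that reached 1 FPKM, 16.1% passed 2-fold upwards and 8.67% downwards. From the midpoints of the bounds the same 4 genes passed, 0 downwards, where the shares among all records were 15.7% upwards and 8.72% downwards. Nefl, Nefm and Nefh passed the 1 FPKM minimum only through the knockout library, where they were high, so their count adds nothing beyond their values. Nes, Vim and Ina stayed within 2-fold, 0 of the 8 genes was at least 2-fold lower, and Prph stayed under 1 FPKM in both libraries.

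**Figure D1:**
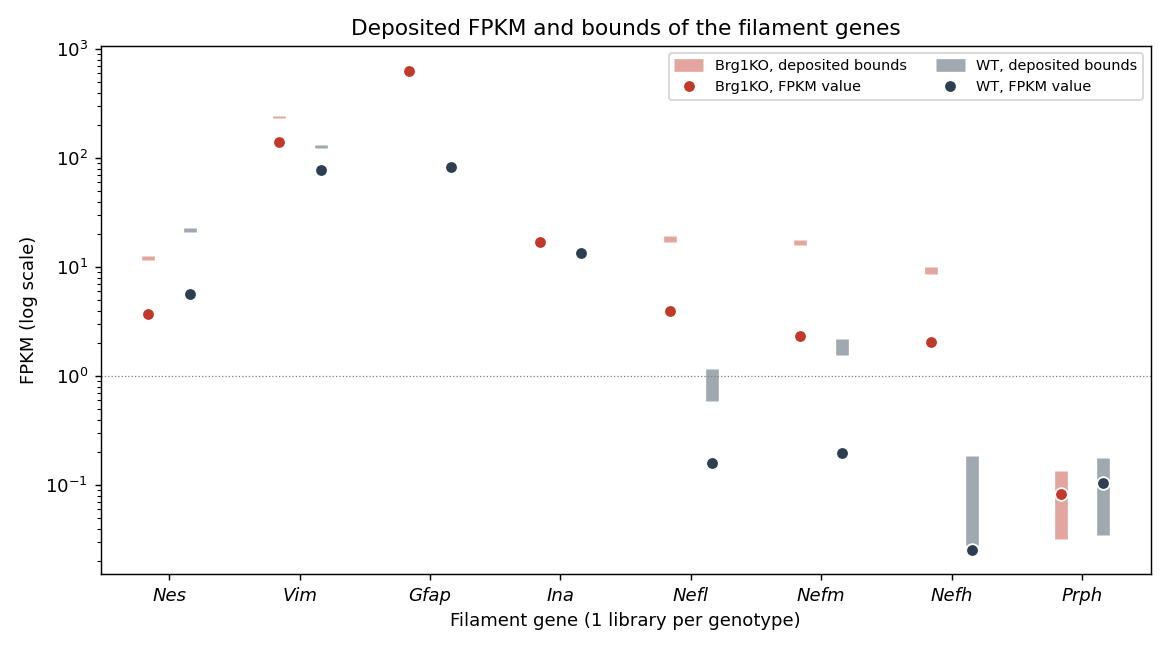
FPKM on a log scale for each filament gene, with the knockout library (Brg1KO) left of the wild-type library (WT) for each gene. Points are the deposited FPKM values, bars run from the deposited lower to the upper bound, and the dotted line marks 1 FPKM. Gfap stands at 629 FPKM in the knockout and 83.5 FPKM in the wild-type library, its bars and those of Ina are hidden behind their points, and the points of Nes, Vim, Nefl, Nefm and Nefh lie under their own bars in both libraries.

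For 5 of the 8 genes the FPKM value lay below its own deposited lower bound in both libraries, and this sets how far levels can be read. The genes were Nes, Vim, Nefl, Nefm and Nefh. Values below their bounds were common in both libraries. Among all records with at least 1 FPKM in the library, they made up 30.3% in the knockout and 30.8% in the wild-type library. The FPKM of Nefm was 13.8% of the midpoint of its bounds in the knockout library and 10.4% in the wild-type library, and that of Nes was 30.9% and 26.1% in the same order of libraries. Vim stood at 58.4% of its midpoint in the knockout and 60.7% in the wild-type library. Ina and Prph lay inside their bounds in both libraries, and Gfap was at 98.3% of its midpoint in the knockout and 98.96% in the wild-type library. An FPKM under 50% of the midpoint in both libraries was found for 4 of the 8 filament genes, and for 4.20% of the 13279 expressed records. No source states how the bounds were made, and which of the 2 values is nearer to the level of the transcript was not tested. Results for the 8 genes are therefore given on both values, and counts over gene lists are from FPKM unless stated. The share of all expressed records whose bounds do not overlap between the libraries was not computed. A lack of overlap, given below for single genes, describes the values and is no test of a difference.

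Nes, which encodes nestin of neural stem and progenitor cells (chromosome 3, 87971093 to 87980451, mm10), had 3.74 FPKM in the knockout library, against 5.70 FPKM in the wild-type library. Its deposited bounds ran from 11.6 to 12.6 FPKM in the knockout library and from 21.0 to 22.7 FPKM in the wild-type library. Both values were lower in the knockout library and the bounds of the libraries did not overlap. The log2 ratio was -0.50 from FPKM and -0.80 from the midpoints, within 2-fold on either. Nes was the only 1 of the 7 expressed filament genes with a lower value in the knockout library.

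Vim, the partner of nestin in progenitors and a filament of astrocytes, endothelium and connective tissue (chromosome 2, 13574311 to 13582826), had 140.0 FPKM in the knockout library, against 78.1 FPKM in the wild-type library. Its bounds ran from 234.9 to 244.4 FPKM in the knockout and from 124.1 to 133.1 FPKM in the wild-type library. Vim was thus higher in the knockout library on both values, by 1.79-fold from FPKM and 1.86-fold from midpoints. The log2 ratio was 0.83 and lay short of 2-fold, but it was 1.02 once both libraries were brought to an equal FPKM total. That rescaling moved the median log2 ratio of all expressed records by 0.18, to 0.26. It also raised the values of both libraries before 1 was added, so the added 1 weighed less, most of all for low values.

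The 2 progenitor filaments therefore did not move together. The ratio of Nes to Vim within a library, which does not depend on how libraries are scaled, was 0.0267 in the knockout library and 0.0730 in the wild-type library, a log2 difference of -1.45. From the midpoints it was 0.0505 in the knockout and 0.170 in the wild-type library, a log2 difference of -1.75. Neural stem and radial glia markers other than Nes were at a sum of 166.1 FPKM in the knockout and 541.1 FPKM in the wild-type library, with 3 of 8 at least 2-fold lower (4 by midpoint), 0 higher and none listed at 0. The 3 were Hes5 and Hes1, Notch targets that hold cells in the progenitor state, and Fabp7, a fatty acid binding protein of radial glia. Fabp7 had 86.0 FPKM in the knockout and 425.4 FPKM in the wild-type library, and so made up much of the sum in each. Pax6 of the same list went the other way, with 32.0 FPKM in the knockout and 18.1 FPKM in the wild-type library. Sox2, a transcription factor of neural stem cells, had 10.2 FPKM in the knockout and 10.5 FPKM in the wild-type library. The part of these cells, of dividing cells and of the vessels, which also make nestin, in the value of Nes was not tested. Proliferation genes were at least 2-fold lower in 10 of 10 cases, with a sum of 251.0 FPKM in the knockout and 820.8 FPKM in the wild-type library. Endothelial markers summed to 112.2 FPKM in the knockout and 38.5 FPKM in the wild-type library, with a median log2 ratio of 0.58 and none at 0. Past 2-fold upwards were 2 of 10 expressed genes, near the share of all expressed records, 16.1%, and 0 were past it downwards. Much of that sum was Ly6c1, a surface antigen gene of vessels and leukocytes, with 66.5 FPKM in the knockout and 10.2 FPKM in the wild-type library. Against the neural stem and radial glia sum, Nes stood at 2.25% in the knockout and 1.05% in the wild-type library. The log2 difference was 1.10, or 0.89 from the midpoints. Against the granule neuron precursor sum the log2 difference was 1.60, or 1.43 from the midpoints. Against the endothelial sum it was -2.15, or -2.46 from the midpoints. In bulk tissue, fewer cells of a type and less RNA per cell cannot be told apart.

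Gfap, the filament of astrocytes and Bergmann glia (chromosome 11, 102887336 to 102897200), was the most abundant of the 8 genes by FPKM in each library. Its log2 ratio was the highest of the 8 with 1 FPKM added to FPKM. With 0.1 FPKM added Nefl, Nefm and Nefh were higher, by midpoint Nefl and Nefh were, and at an equal FPKM total Nefl was. At the equal total the added 1 weighed less for low values, so the change of order there was not from scaling alone. Gfap had 628.8 FPKM in the knockout library, with bounds of 634.8 to 644.5, against 83.5 FPKM in the wild-type library, with bounds of 82.3 to 86.4. The knockout value was 7.53-fold higher (log2 ratio 2.90), and 1.57% of all expressed records had a higher log2 ratio. Across the alternatives of pseudocount, scaling and midpoint the log2 ratio ran from 2.81 to 3.09.

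Other glial genes were higher in the same library. The list for astrocytes and Bergmann glia had 9 of 10 genes past 2-fold upwards (7 by midpoint) and 0 downwards, with a median log2 ratio of 1.78, where the median of all expressed records was 0.09. Their sum was 3308 FPKM in the knockout and 757.5 FPKM in the wild-type library, and none was at 0. Aldoc, the brain aldolase of Purkinje cells and astrocytes, had 911.9 FPKM in the knockout and 64.6 FPKM in the wild-type library. Gja1, which encodes the gap junction protein connexin 43, had 138.1 FPKM in the knockout and 17.6 FPKM in the wild-type library. Glul, the glutamine synthetase of astrocytes, had a log2 ratio of 2.09, and Gdf10, a growth factor gene of Bergmann glia, had 2.74. Aldoc and Glul made up much of the list sum, Glul with 1297 FPKM in the knockout and 303.2 FPKM in the wild-type library. Against this sum, Gfap stood at 19.0% in the knockout library and 11.02% in the wild-type library, a log2 difference of 0.79, short of 2-fold. Vim against the same sum was at 4.23% in the knockout and 10.3% in the wild-type library, a log2 difference of -1.29. From the midpoints these log2 differences were 0.94 and -1.09. Shares without Aldoc, which Purkinje cells also make, were not computed. The share of astrocytes in each tumour and its part in the Gfap value was not tested.

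Genes that astrocytes raise after injury, when they also raise Gfap and Vim, were higher as well. In the reactive astrocyte list 16 of 20 passed 2-fold upwards and 0 downwards, with log2 ratios between -0.12 and 4.08. Serpina3n, a secreted protease inhibitor, had 180.3 FPKM in the knockout library, against 9.69 FPKM in the wild-type library. Ptx3, a pattern recognition protein of innate immunity, had 35.3 FPKM in the knockout and 1.82 FPKM in the wild-type library, and the small heat shock protein gene Hspb1 had 23.3 FPKM in the knockout and 1.30 FPKM in the wild-type library. Aspg, an asparaginase gene, had a log2 ratio of 2.77. Members of this list such as C3, Cxcl10 and H2-D1 are also made by immune cells. The list for microglia and macrophages had 9 of 12 genes past 2-fold upwards, 0 downwards and none at 0, and summed to 828.0 FPKM in the knockout and 380.6 FPKM in the wild-type library. Their part in the list was not tested.

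The ratio of Gfap to Vim was 4.49 in the knockout library, against 1.07 in the wild-type library (log2 difference 2.07). From the midpoints it was 2.67 in the knockout and 0.656 in the wild-type library (log2 difference 2.02). The order of the 2 genes in the wild-type library thus depended on which deposited value was read, and the difference between libraries, close to 4-fold, did not. The ratio of Gfap to Nes was 168.1 in the knockout and 14.6 in the wild-type library by FPKM, a log2 difference of 3.52. By midpoint it was 52.8 in the knockout and 3.86 in the wild-type library, a log2 difference of 3.77. On either value this was the largest difference of the 3 ratios among progenitor and glial filaments.

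Upstream sequence is shown for Gfap and Vim, both filaments of astrocytes, since their ratio differed by this much. The windows are the 250 bases before the annotated start, 5′ to 3′ on the coding strand, from RefSeq on GRCm38.p6, at chr11:102897201-102897450 (minus strand) and chr2:13574061-13574310 (plus strand). Capitals mark matches on either strand to the TATA box letters TATAAA, the CCAAT box letters CCAAT, the GC box letters GGGCGG or the AP-1 letters TGANTCA.
Gfap: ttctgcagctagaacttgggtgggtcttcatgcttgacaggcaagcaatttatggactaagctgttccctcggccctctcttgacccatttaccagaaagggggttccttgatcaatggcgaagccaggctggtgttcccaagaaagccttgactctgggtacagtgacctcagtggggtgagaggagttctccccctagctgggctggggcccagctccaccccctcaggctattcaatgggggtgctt
Vim: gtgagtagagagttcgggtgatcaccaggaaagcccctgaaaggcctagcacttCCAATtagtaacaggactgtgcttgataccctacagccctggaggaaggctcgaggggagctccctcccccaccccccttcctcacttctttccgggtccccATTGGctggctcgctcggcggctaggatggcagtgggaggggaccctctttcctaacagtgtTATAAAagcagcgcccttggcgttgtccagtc

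The Vim window held TATAAA starting 32 bases before the start and CCAAT at 2 places, whereas none of the 4 motifs was found in the Gfap window. Of all 32851 windows provided, 12.4% held TATAAA, 33.8% CCAAT, 32.7% GGGCGG and 6.75% TGANTCA. Windows for Nes, Ina and Prph were searched as well. TATAAA was found in that of Prph, GGGCGG in those of Nes, Ina and Prph, and TGANTCA in none of the 5. CANNTG, the general letters of the E-box, was in the Ina window alone of the 5 and in 66.2% of all windows. Windows of Nefl, Nefm and Nefh were not used here.

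Among the neuronal filaments, Ina was present at a like level in both libraries. Ina (chromosome 19, 47014698 to 47024346), the filament that neurons make before the neurofilament chains and that cerebellar granule neurons keep, had 17.2 FPKM in the knockout library, with bounds of 16.5 to 18.0, against 13.6 FPKM in the wild-type library, with bounds of 12.9 to 14.3. The bounds did not overlap. The log2 ratio was 0.32 and ran from 0.23 to 0.50 over the alternatives, within 2-fold in all 6. Granule neuron markers were at least 2-fold higher in 7 of 8 cases in the same library, with 0 lower and none at 0, and summed to 638.9 FPKM in the knockout and 165.8 FPKM in the wild-type library. Gabra6, whose GABA receptor subunit marks granule neurons that have matured, had 143.1 FPKM in the knockout and 1.24 FPKM in the wild-type library. Most of the wild-type sum was Zic1, Neurod1 and Cbln1, with 74.6, 45.1 and 39.9 FPKM. In the knockout library these genes had 99.8, 150.0 and 86.4 FPKM in the same order. Ina was at 2.68% of the list sum in the knockout library and 8.18% in the wild-type library, a log2 difference of -1.61, or -0.98 from the midpoints. This difference rests on those genes in the wild-type library, and shares without them were not computed. The part of granule neurons in the Ina value was not tested.

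The 3 neurofilament chains were low in the wild-type library and higher in the knockout library. Nefl, the light chain that is needed for the others to form filaments (chromosome 14, 68083884 to 68087737), had 3.93 FPKM in the knockout library, with bounds of 17.0 to 19.3, against 0.161 FPKM in the wild-type library, with bounds of 0.593 to 1.16. Nefm, the medium chain (chromosome 14, 68119545 to 68125004), had 2.32 FPKM in the knockout library, with bounds of 15.9 to 17.7, against 0.196 FPKM in the wild-type library, with bounds of 1.57 to 2.21. Nefh, the heavy chain, which axons add last (chromosome 11, 4938756 to 4948064), had 2.04 FPKM in the knockout library, with bounds of 8.61 to 9.97, against 0.0253 FPKM in the wild-type library, with bounds of 0.0283 to 0.184. For each chain the knockout library was the higher one on either value. No bounds overlapped between libraries, which with 1 library per genotype is no test of a difference.

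The size of these differences depended on how low values were treated. The log2 ratio was 2.09 for Nefl, 1.47 for Nefm and 1.57 for Nefh with 1 FPKM added, and 3.95, 3.03 and 4.10 for the same genes with 0.1 FPKM added. From the midpoints, with 1 FPKM added, it was 3.35 for Nefl, 2.62 for Nefm and 3.22 for Nefh. With nothing added, the midpoint of Nefl was 20.7-fold higher in the knockout library, that of Nefm 8.89-fold and that of Nefh 87.5-fold. The wild-type bounds of Nefh reached 73.3% to either side of their midpoint, so its fold is the least certain of the 3. All 3 were past 2-fold under each of the 6 alternatives of pseudocount, scaling and midpoint.

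**Figure D2:**
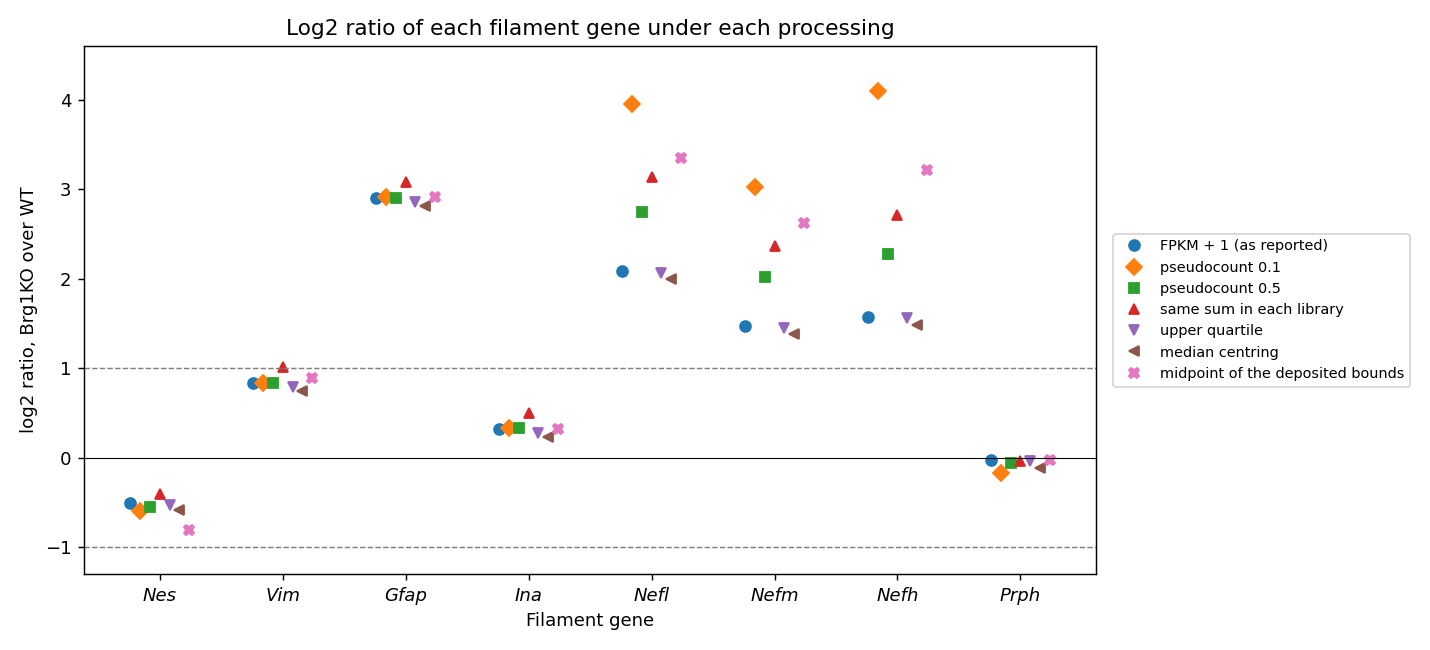
Log2 ratio of knockout over wild-type library for each filament gene (horizontal axis) under the processing as reported and the 6 alternatives of pseudocount, scaling and midpoint. Dashed lines mark 2-fold; the values of Gfap stay between 2.81 and 3.09, whereas those of Nefh run from 1.48 to 4.10 and Vim crosses the line only when FPKM is rescaled to the same sum.

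The proportions of the chains differed between the libraries. Nefh made up 24.6% of the summed FPKM of the 3 chains in the knockout library and 6.62% in the wild-type library. From the midpoints its share was 21.0% in the knockout and 3.70% in the wild-type library. Nefm went the other way, with 38.0% of the summed midpoints in the knockout and 65.8% in the wild-type library, and with 27.9% of the summed FPKM in the knockout and 51.4% in the wild-type library. The ratio of Nefh to Nefm was 0.882 in the knockout and 0.129 in the wild-type library by FPKM (log2 difference 2.78), and 0.553 and 0.0562 by midpoint in the same order (log2 difference 3.30). The ratio of Nefm to Nefl was 0.589 in the knockout and 1.22 in the wild-type library by FPKM (log2 difference -1.05), and 0.927 and 2.16 by midpoint in the same order (log2 difference -1.22). These ratios used no pseudocount, and those by FPKM rest on wild-type values under 0.2 FPKM. With 1 FPKM added to the FPKM values, the log2 difference of Nefh to Nefm was 0.10 and that of Nefm to Nefl was -0.62. With 1 FPKM added, the difference of Nefh to Nefl turned from 1.72 to -0.52.

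Neurons known for neurofilaments had higher markers in the knockout library. The Purkinje cell list had 10 of 10 genes past 2-fold upwards, with a median log2 ratio of 4.87 and none at 0. Their sum was 782.7 FPKM in the knockout and 13.6 FPKM in the wild-type library. Pcp2, a G protein regulator of Purkinje cells, had 147.5 FPKM in the knockout and 0.644 FPKM in the wild-type library, and the calcium buffer gene Calb1 had 149.4 FPKM in the knockout and 1.33 FPKM in the wild-type library. Of 7 GABAergic interneuron markers 6 were expressed and all 6 were at least 2-fold higher, with a sum over the 7 of 418.7 FPKM in the knockout and 18.99 FPKM in the wild-type library. Among them was Pvalb, the calcium buffer of basket cells and Purkinje cells, with 293.8 FPKM in the knockout and 10.9 FPKM in the wild-type library. Pvalb thus made up most of the interneuron sum in each library, and shares without it were not computed. The summed FPKM of the 3 chains was 1.98% of the interneuron sum in the knockout library and 2.01% in the wild-type library, a log2 difference of -0.02. Against the Purkinje cell sum it was 1.06% in the knockout library and 2.80% in the wild-type library, a log2 difference of -1.40. From the midpoints these log2 differences were -0.32 and -1.63. The part of either cell type in the neurofilament values was not tested.

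Prph, the filament of peripheral neurons (chromosome 15, 99055174 to 99058978), was near the lower end of the scale in both libraries. It had 0.0834 FPKM in the knockout library, with bounds of 0.0321 to 0.135, against 0.106 FPKM in the wild-type library, with bounds of 0.0352 to 0.176. The bounds overlapped, which was the case for no other filament gene. Among genes of brainstem and peripheral neurons, levels varied. Th, the tyrosine hydroxylase gene of catecholamine neurons, had 2.74 FPKM in the knockout and 4.20 FPKM in the wild-type library. Dbh, the noradrenaline enzyme, was listed at 0 in both libraries, Isl1, a factor of motor and sensory neurons, was at 0 in the wild-type library, and Chat, the acetylcholine enzyme, had 0.00850 FPKM in the knockout and 0.103 FPKM in the wild-type library. Of 7 brainstem and deep nuclear projection neuron markers 3 were expressed, with 2 at least 2-fold lower, Slc17a6 and Slc6a2, and a sum of 13.9 FPKM in the knockout and 34.05 FPKM in the wild-type library. Slc17a6, a vesicular glutamate transporter gene, had 10.6 FPKM in the knockout and 27.4 FPKM in the wild-type library, and Slc6a2, the noradrenaline transporter gene, had 0.0693 FPKM in the knockout and 1.19 FPKM in the wild-type library. By midpoint Slc6a2 was no longer past 2-fold, with a log2 ratio of -0.90. Of 8 peripheral neuron and Schwann cell markers 2 were expressed, Pmp22 and Sox10, with log2 ratios of 1.38 and 0.25, which oligodendrocytes also make. The sensory neuron channel gene Scn10a had 0.00277 FPKM in the knockout and 0.00342 FPKM in the wild-type library.

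Summed over the 8 genes, filament transcripts took a larger part of the knockout library. The sum was 798.1 FPKM, or 0.233% of all FPKM, in the knockout library and 181.3 FPKM, or 0.0467%, in the wild-type library, 4.40-fold higher in the knockout library. By midpoint the sum was 953.0 in the knockout and 251.4 in the wild-type library, 3.79-fold higher. Gfap made up 78.8% of the FPKM sum in the knockout and 46.0% in the wild-type library. Vim made up 17.5% in the knockout and 43.1% in the wild-type library, and Nes 0.469% and 3.14% in the same order. By midpoint Vim made up 25.1% in the knockout and 51.2% in the wild-type library, and Nes 1.27% and 8.69% in the same order. The 5 neuronal filaments together made up 3.20% in the knockout and 7.75% in the wild-type library by FPKM, but 6.46% and 6.60% by midpoint in the same order. The share was thus lower in the knockout library on both values, by a small amount from the midpoints. Their sum was 25.5 FPKM in the knockout and 14.1 FPKM in the wild-type library, with a log2 ratio of 0.82 from FPKM and 1.83 from midpoints. Within the neuronal filaments the place of Ina differed on either value: the ratio of Nefl to Ina was 0.229 in the knockout and 0.0118 in the wild-type library by FPKM, and 1.05 and 0.0643 by midpoint in the same order.

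**Figure D3:**
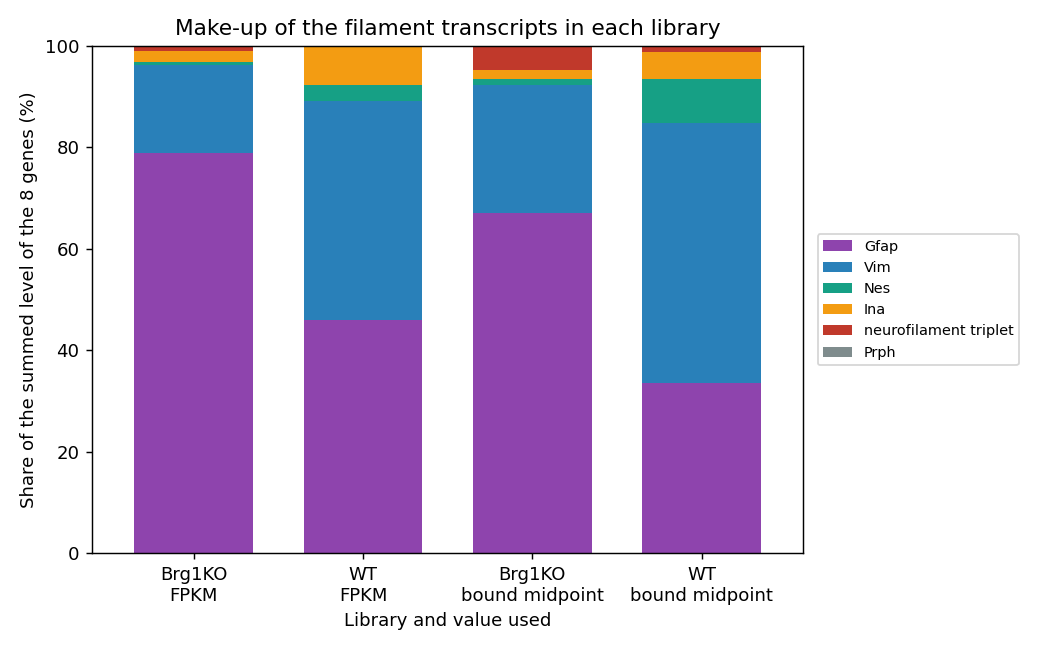
Share of each filament gene in the summed level of the 8 genes, in percent, with the knockout library left of the wild-type library, from FPKM (left pair of bars) and from the midpoints of the deposited bounds (right pair). Gfap takes 78.8% in the knockout and 46.0% in the wild-type library by FPKM and 67.1% and 33.6% by midpoint in the same order, while Prph is too small to see.

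The order of levels depended on which deposited value was read, in the middle of the range and for Gfap and Vim in the wild-type library. By midpoint, the knockout library ran from Gfap at 639.7 FPKM and Vim at 239.6 FPKM to Nefl at 18.1, Ina at 17.3, Nefm at 16.8, Nes at 12.1, Nefh at 9.29 and Prph at 0.0834 FPKM. The bounds of Nefl, Ina and Nefm overlapped each other, and no other neighbours in this order overlapped. Overlap of bounds, or its lack, is no test of order, so no order is taken as settled. The wild-type library ran from Vim at 128.6 FPKM and Gfap at 84.4 FPKM to Nes at 21.8, Ina at 13.6, Nefm at 1.89, Nefl at 0.876, and Nefh and Prph, whose bounds overlapped, both at 0.106 FPKM. By FPKM, Ina at 17.2 FPKM came well before Nefl at 3.93 FPKM in the knockout library, Nes at 3.74 FPKM came before Nefm at 2.32 FPKM there, and Gfap came before Vim in the wild-type library.

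The rest of the filament machinery did not move as 1 group. Of 12 other intermediate filament genes 4 were expressed, with 1 at least 2-fold lower and 0 higher. The 1 was Lmnb2, a nuclear lamin gene, with 8.92 FPKM in the knockout and 22.5 FPKM in the wild-type library, and Lmna, the lamin gene of differentiated cells, had 6.20 FPKM in the knockout and 2.77 FPKM in the wild-type library (log2 ratio 0.93). Synm, which encodes the partner synemin of vimentin and desmin, stayed under 1 FPKM in both libraries. Of 11 genes of proteins that link filaments to other structures, 10 were measured and 7 expressed. Where 16.1% of all expressed records passed 2-fold upwards, 2 of the 7 did, and 0 passed downwards. These were Mapt, which encodes the microtubule protein tau, with 38.96 FPKM in the knockout and 13.0 FPKM in the wild-type library, and Ank2, which encodes the membrane anchor ankyrin-B, with 38.8 FPKM in the knockout and 13.4 FPKM in the wild-type library. Plec, the gene of the linker plectin, had 2.08 FPKM in the knockout and 0.810 FPKM in the wild-type library (log2 ratio 0.77).

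Genes of neurofilament phosphorylation passed 2-fold upwards at a share near that of all expressed records, 16.1%. Of 15 kinase and phosphatase genes 3 passed 2-fold upwards and 0 downwards, with a median log2 ratio of 0.05. By midpoint 1 was also past 2-fold downwards, the phosphatase subunit gene Ppp2r2c with a log2 ratio of -1.08. Camk2a, a calmodulin-dependent kinase gene of mature neurons, had 6.73 FPKM in the knockout and 0.0721 FPKM in the wild-type library. Cdk5r2, an activator of the neurofilament kinase Cdk5, had 4.38 FPKM in the knockout and 0.715 FPKM in the wild-type library, while Cdk5 itself had 36.9 FPKM in the knockout and 27.8 FPKM in the wild-type library. Mapk10, a neuronal kinase gene of the JNK group, had 19.8 FPKM in the knockout and 9.29 FPKM in the wild-type library, just past 2-fold. Of 9 genes of axonal transport motors 4 passed 2-fold upwards and 0 downwards, with a median of 0.95. The neuronal kinesin genes Kif5a and Kif5c, which carry neurofilaments along axons, had 23.2 and 55.5 FPKM in the knockout library, against 6.81 and 21.4 FPKM in the wild-type library. The widely expressed Kif5b had 25.04 FPKM in the knockout and 24.6 FPKM in the wild-type library. Dync1i1, a dynein chain gene of neurons, had 6.83 FPKM in the knockout and 0.144 FPKM in the wild-type library, and the kinesin light chain gene Klc2 had a log2 ratio of 1.51.

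Of the lists of other cells, oligodendrocyte markers were at least 2-fold higher in 8 of 8 cases, with a sum of 717.3 FPKM in the knockout and 71.1 FPKM in the wild-type library. Pericyte, fibroblast and meninges markers, whose cells make vimentin, were at least 2-fold higher in 3 of 10 expressed cases (Vtn, Dcn and Col1a2) and lower in 0. Among all expressed records 16.1% were higher. Cspg4 and Lum went the other way within 2-fold, with log2 ratios of -0.59 and -0.41. The sum over 11 genes was 138.9 FPKM in the knockout and 46.4 FPKM in the wild-type library, and most of it was Dcn and Vtn in each. The part of these cells in the Vim value was not tested. By FPKM 0 of 6 choroid plexus and ependyma markers passed 2-fold in either direction. By midpoint 1 passed upwards, the ciliogenesis factor gene Foxj1 with a log2 ratio of 1.07, and 1 downwards, the homeobox gene Otx2 with -1.06. Their sum was 1103 FPKM in the knockout and 1049 FPKM in the wild-type library. Granule neuron precursor genes were at least 2-fold lower in 5 of 6 cases.

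**Figure D4:**
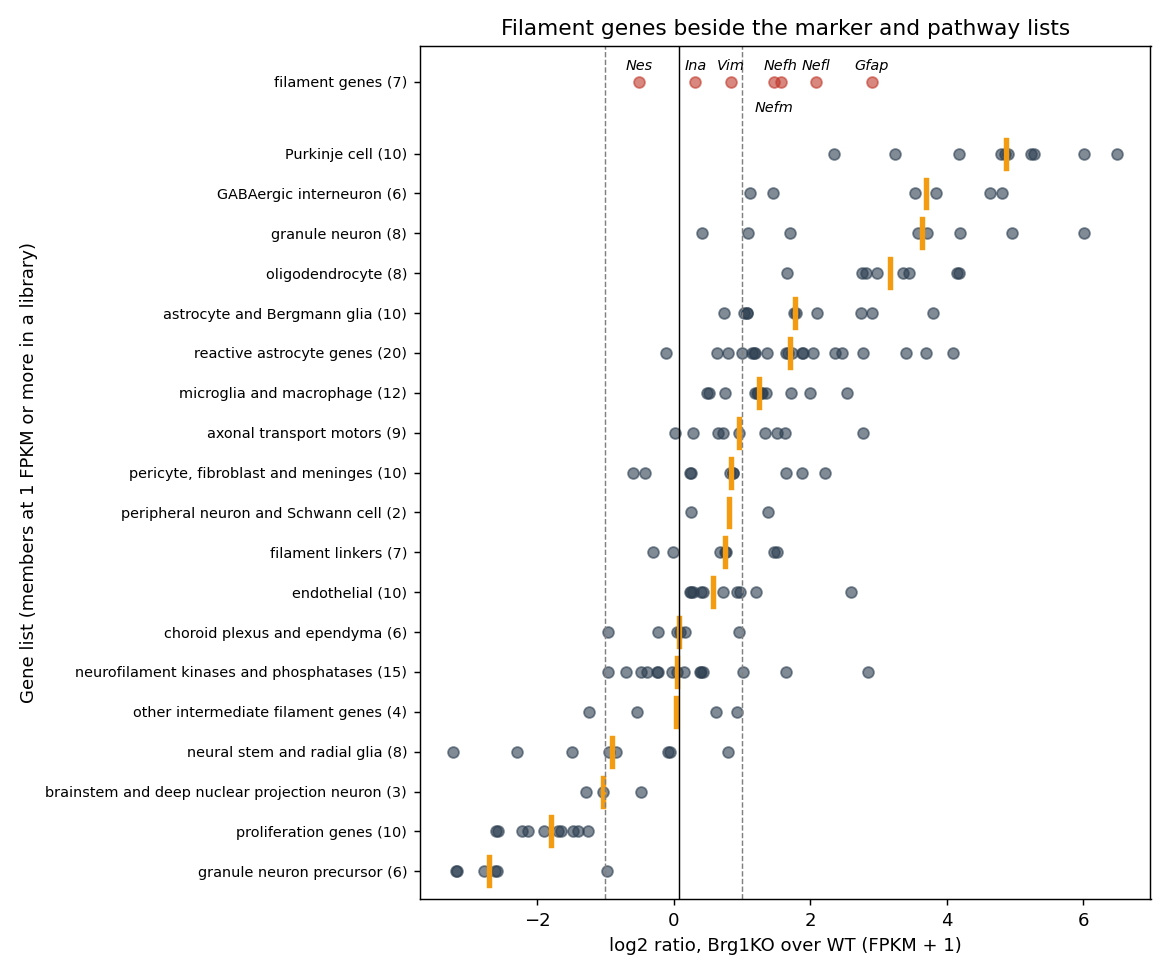
Log2 ratio of knockout over wild-type library for the 7 expressed filament genes (top row) and for the expressed members of each marker and pathway list (rows below, number of expressed members in parentheses). Points are genes, orange bars are list medians, dashed lines mark 2-fold and the black line is the median of all expressed records, 0.09; Purkinje cell markers have the highest median, 4.87, and granule neuron precursor genes the lowest, -2.70.

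Genes nearest to the filament genes in both libraries were taken by distance on the log2(FPKM + 1) scale, over 2 libraries and so over 2 values each. The nearest to Gfap was Sparc, a secreted matrix protein gene of astrocytes and vessels, with 556.2 FPKM in the knockout and 104.5 FPKM in the wild-type library, at a distance of 0.37. The nearest to Vim was Lamp2, a lysosomal membrane protein gene, with 145.7 FPKM in the knockout and 79.4 FPKM in the wild-type library. The nearest to Nefl, Nefm and Nefh were Galntl2, Cyp26b1 and Gpr12, the nearest to Nes was Vars2 and the nearest to Ina was Uxs1, at distances of 0.00325 for Vars2 to 0.0324 for Galntl2. Gfap was the farthest from its neighbour of the 7 genes.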

How the data were processed

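RNA was extracted with TRIzol from dissected tumours and sequenced on an Illumina HiSeq instrument, per the labels' protocols. The authors deposited FPKM per gene with a lower and an upper bound and a status, per the file headers. Named without a role in the submitters' processing notes are mm10 and Cuffdiff 2.1.1. For aligner, annotation and filters: not given in the sources used here. Depth per library is unknown, so no counting interval is given.

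Records were joined by symbol and locus. A pseudocount of 1 FPKM was added before log2, a record counted as expressed from 1 FPKM upwards in either library, and 2-fold was the rule of size in place of a test. The 19 gene lists hold 189 entries, of which 1 gene is not analysed here; some list genes are not reported here. Members and lists were chosen with earlier results of these data known. From each list the text names up to 4 members with the largest log2 ratio past 2-fold, or the 2 most abundant where fewer than 2 pass. Members named beyond this rule (Sox2, Pax6, Plec, Synm, Cdk5, Kif5b, Chat, Isl1, Dbh, Th, Scn10a, Foxj1, Ppp2r2c, C3, Cxcl10, H2-D1, Zic1, Neurod1, Cbln1, Cspg4 and Lum) were chosen after their values were seen. So were the comparison of FPKM with its bounds and the levels per summed marker list. Coordinates count from 1. Transcripts came from GENCODE M21 and upstream windows from RefSeq, used here for 5 of the 8 genes. The scripts were tested on simulated data. Python 3.11.15, numpy 2.4.6, pandas 2.3.3, Biopython 1.88 and matplotlib 3.10.9 were used.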

Additional observations from a re-analysis of the deposited data

How the results depend on the processing

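Gfap, Nefl, Nefm and Nefh stayed past 2-fold upwards with pseudocounts of 0.1 and 0.5, the 3 scalings and the bound midpoints, and Nes, Ina and Prph stayed within 2-fold. Vim passed 2-fold with FPKM rescaled to the same sum (log2 ratio 1.02), and its 0.83 passes a threshold of 1.5-fold; Nefm (1.47) and Nefh (1.57) do not reach 4-fold. That rescaling also gave 3098 higher and 1024 lower records, 75.2% higher, in place of 2139 and 1151, 65.0% higher. It raised all values before 1 was added, so results called rescaled differ both in scaling and in the weight of the added 1. The summed neuronal filaments passed 2-fold when rescaled (1.02) and from midpoints (1.83). With 1 FPKM added, the log2 differences of the within-library ratios became -0.62 for Nefm to Nefl, -0.52 for Nefh to Nefl (reversed) and 0.10 for Nefh to Nefm, since the added 1 FPKM outweighs wild-type values under 0.2 FPKM. List medians that crossed 2-fold were the pericyte list (1.64 among genes of at least 5 FPKM, 1.22 rescaled), the peripheral neuron list (1.38 from 1 gene, 1.03 rescaled), the axonal transport motors (1.16 rescaled) and the brainstem list, whose -1.04 became -0.47 with no filter and -0.90 from midpoints; beyond the change of genes tested, the cause was not tested. Genes past 2-fold upwards numbered 4 when rescaled and 3 from midpoints in the endothelial list, in place of 2, and 6 when rescaled in the pericyte list, in place of 3. Of the 209 alternatives, 191 stayed on the same side of the fold threshold or, for counts over all records, within 1.5-fold of the count. Direction was compared only for results past 2-fold. The median of the other intermediate filament genes, within 2-fold, went from 0.04 to -0.16 among genes of at least 5 FPKM. No paired analysis was possible because there was 1 library per genotype, and no replicate could be left out. Depth is unknown, so values near Prph and wild-type Nefh cannot be told from counting noise.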
